A study of Mus musculus with 6 samples.

Results

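The cytosolic ribosome is built from a small and a large subunit, and its proteins are encoded by a family of genes whose symbols start with Rps (small subunit) or Rpl (large subunit). These genes were followed in the vestibular and cochlear sensory epithelia of newborn mice. Members were the probe sets annotated to a single gene whose symbol starts with Rps or Rpl and a number, or is Rplp0, Rplp1, Rplp2 or Rpsa. The ribosomal S6 kinases and pseudogenes were left out. The rule found 50 genes, read by 106 probe sets, among 18194 genes with a probe set of their own. Of these, 49 encode ribosomal proteins or their close copies, with 23 of the small subunit, 24 of the large subunit and 2 of the stalk. The other one, Rps19bp1, encodes a protein that binds ribosomal protein S19 and is not part of the ribosome. A further 110 probe sets name a matching symbol together with other genes and were not used, so many ribosomal protein genes, Rplp1 among them, are not analysed here.

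Affymetrix mouse genome arrays measured mRNA of C3H wild type pups taken at postnatal day 2, with 3 arrays of vestibular and 3 arrays of cochlear sensory epithelium. The vestibular samples joined the saccule with the utricle and with cristae, the lateral and anterior ones, both tissues kept the mesenchyme beneath them and the neurons attached to them, and each pool held the epithelia of 10 to 12 inner ears. The sources used here do not say which pool was hybridised to which array, so the p-values measure the spread between arrays, which may be partly technical. In such bulk samples a difference in the share of a cell type and a difference in RNA per cell cannot be told apart.

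Ribosomal proteins are needed in nearly equal amounts, and most of their genes are transcribed at a high rate from promoters without a TATA box. Their mRNAs begin with a C followed by a stretch of C and T, the terminal oligopyrimidine (TOP) motif, through which mTORC1 and Larp1 control translation and stability of the whole class. The same motif starts the mRNAs of translation factors and the host transcripts of many small nucleolar RNAs (snoRNAs). Ribosomal protein genes have many processed copies in the mouse genome, and short-oligonucleotide probes can read near-identical copies together.

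The start regions below are those of genes whose values are given further on, printed to show where runs of C and T lie near the start. They cover 50 bases before and 30 bases from the annotated start, 5′ to 3′ on the gene's strand, from RefSeq on GRCm38.p6, and capitals mark runs of 8 or more C or T. Rps25 and Rpl14 were lower in the vestibule, Rps24 had several probe sets lower in the vestibule, Rps19 was lower, and Rps7 had the same mean in both tissues. Snhg1 and Snhg12 are snoRNA host transcripts that were lower in the vestibule. Rps19 and Rps24 are shown at the first of several annotated starts. Rps19 has no run there but a run of 13 bases in the window of its second start, and Rps24 has a run of 9 bases there and one of 19 in the window of its second start. The printed runs span the start in Rpl14, Rps24 and Snhg12, and lie before it in Rps25, after it in Snhg1 and on both sides of it in Rps7.
Rps25 (chr9:44407664-44407743, plus strand): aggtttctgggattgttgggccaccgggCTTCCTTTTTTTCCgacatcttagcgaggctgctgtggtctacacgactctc
Rpl14 (chr9:120571467-120571546, plus strand): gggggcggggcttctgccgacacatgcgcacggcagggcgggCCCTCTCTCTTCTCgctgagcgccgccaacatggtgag
Rps24 (chr14:24490628-24490707, plus strand): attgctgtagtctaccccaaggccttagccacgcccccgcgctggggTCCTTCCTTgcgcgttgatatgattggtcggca
Rps19 (chr7:24884542-24884621, plus strand): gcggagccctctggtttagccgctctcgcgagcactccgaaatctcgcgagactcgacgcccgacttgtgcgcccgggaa
Rps7 (chr12:28635924-28636003, minus strand): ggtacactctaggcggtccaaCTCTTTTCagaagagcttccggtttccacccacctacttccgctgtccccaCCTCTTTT
Snhg1 (chr19:8723437-8723516, plus strand): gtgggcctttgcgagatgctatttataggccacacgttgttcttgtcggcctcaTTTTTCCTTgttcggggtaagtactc
Snhg12 (chr4:132308628-132308707, plus strand): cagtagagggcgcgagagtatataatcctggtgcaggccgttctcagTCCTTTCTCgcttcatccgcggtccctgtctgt

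Start regions of 300 bases (250 before and 50 after the start) were matched for 43 of the 49 ribosomal members and compared with 27025 genes of the same table. A C followed by 4 of C or T within 2 bases of an annotated start, on the sense strand, was found for 14 members (32.6%), against 10.6% of all genes. A run of 8 or more C or T between 50 bases before and 50 bases after a start was found for 36 members (83.7%), against 39.3% of all genes. The letters CGGAAG, on either strand, occurred in 30 members (69.8%) and in 18.8% of all genes. The letters ATGGCG, on either strand, occurred in 16 members (37.2%) and in 10.2% of all genes. The letters TATAAA, on either strand, occurred in 6 members (14.0%) and in 15.7% of all genes. All of these letters except the C at the start were chosen after some of these promoters had been seen. A match describes the letters and is not a measured site.

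Values are deposited log2 expression values, and for each gene the probe set with the highest mean over the 6 arrays stands for the gene. Genes were tested where that mean was at least 4.7, which 48 of the 50 members reached. A call needed a limma p under 0.1, adjusted by Benjamini and Hochberg's method over 29554 probe sets, together with at least a 1.3-fold change. Rps16 was below the minimum, with 3.5, 3.5 and 3.8 in the vestibule and 3.4, 3.6 and 3.4 in the cochlea. Rpl3l, a large-subunit copy of heart and skeletal muscle, was also below it, with 3.9, 4.0 and 4.0 in the vestibule and 3.9, 4.0 and 3.9 in the cochlea. Both were close to the lowest value in the table, 2.8. Neither gene has a level or a test in what follows.

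No ribosomal protein gene was called higher in the vestibule, and most differences were small and towards the cochlea. In limma 0 of 48 members passed as higher in the vestibule, where 15.1% of all 14162 tested genes did. Another 4 of 48 passed as higher in the cochlea, where 7.97% of genes did. The count of 4 is thus close to the background share. At an unadjusted p under 0.05 there were 11 members, all 11 higher in the cochlea, a direction that 11.8% of all tested genes had at this threshold. None was higher in the vestibule, against 19.6% of all tested genes. In sign, 36 members were lower in the vestibule, 10 were higher there and 2 had no difference. The median difference, vestibule minus cochlea, was −0.13 on the log2 scale over the members and 0.03 over all tested genes. The quartiles of the members were −0.27 and −0.03, and the whole range was −0.63 to 0.23. The 95% interval of the difference stayed within a 1.3-fold change in either direction for 18 members (37.5%), against 22.9% of all tested genes. This share moved with level. At a mean of 13.5 or more it was 70.0% of members against 52.5% of genes. Between 10 and 13.5 it was 18.8% against 26.0%, and under 10 it was 8.33% against 22.3%.

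**Figure D1:**
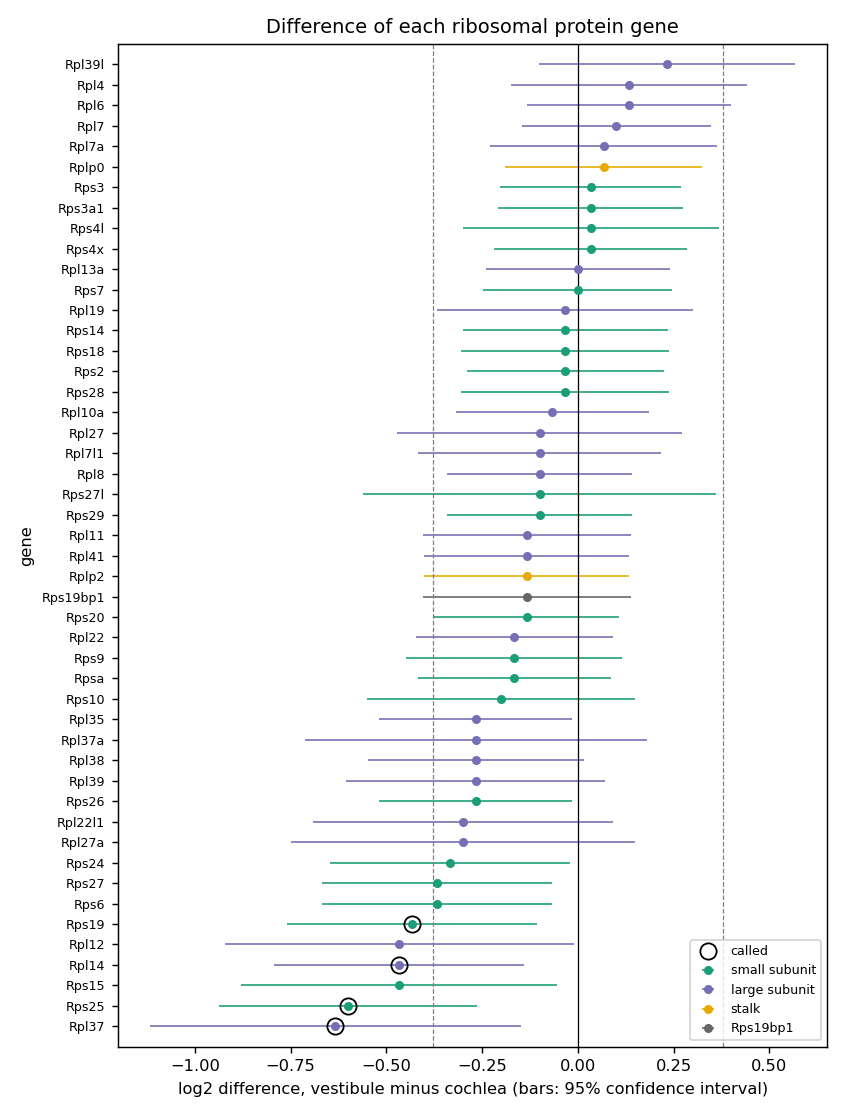
Log2 difference (vestibule minus cochlea) of the 48 tested genes, in descending order, with 95% confidence intervals as bars, colours for the subunits, rings for called genes and dashed lines at 1.3-fold. The 36 genes that were lower in the vestibule run down to −0.63 for Rpl37, and the 4 called genes all lie on that side.

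The 4 called genes were Rps25, Rpl37, Rpl14 and Rps19, 2 from each subunit. All 4 were read by 1 probe set each, with means of 9.77 for Rps25, 8.35 for Rpl37, 8.6 for Rpl14 and 12.65 for Rps19. Of the 50 members, 27 averaged 13 or more. How well the dimmer probe sets of Rps25, Rpl37 and Rpl14 read their mRNA was not tested, so the levels and differences of these genes are uncertain. Rps25, a small-subunit protein needed for initiation at some viral internal ribosome entry sites, had 9.4, 9.6 and 9.4 in the vestibule, against 9.8, 10.1 and 10.3 in the cochlea. Every vestibular array was below every cochlear array, and the difference was −0.60 (SE 0.15, limma adjusted p = 0.0252). Rps19, a small-subunit protein whose gene is mutated in human Diamond-Blackfan anaemia, had 12.2, 12.6 and 12.5 in the vestibule, against 12.7, 12.9 and 13.0 in the cochlea. The arrays again did not overlap, with a difference of −0.43 (SE 0.14, limma adjusted p = 0.0789). Rpl14, a protein of the large subunit, had 8.3, 8.4 and 8.4 in the vestibule and 8.6, 8.8 and 9.1 in the cochlea. It did not overlap either, and differed by −0.47 (SE 0.14, limma adjusted p = 0.0600). Rpl37, a zinc-binding protein of the large subunit, had 7.8, 8.3 and 8.0 in the vestibule and 8.2, 8.9 and 8.9 in the cochlea. Here vestibule replicate 2 lay above cochlea replicate 1, and the difference was −0.63 (SE 0.21, limma adjusted p = 0.0835). The probe set of Rpl37 is of a type that can read near-identical copies, so its level is uncertain.

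Fits with 1 array fewer lost most of these calls. Without vestibule replicate 1, and likewise without vestibule replicate 3, limma called 0 of the 48 members. Without vestibule replicate 2 or cochlea replicate 2 it called 1, without cochlea replicate 3 it called 2, and without cochlea replicate 1 it called 5. Rps25, which lost its call in 3 of 20 alternatives, kept differences of −0.57 with a limma adjusted p of 0.13 without vestibule replicate 1 and 0.123 without vestibule replicate 3. For Rpl14 the adjusted p from limma was 0.218, 0.157 and 0.167 without vestibule replicates 1, 2 and 3 in turn, 0.108 without cochlea replicate 2 and 0.104 without cochlea replicate 3. For Rps19 the corresponding values were 0.256, 0.104, 0.175, 0.145 and 0.203, and for Rpl37 they were 0.31, 0.116, 0.254, 0.223 and 0.277. The differences without 1 array ran from −0.58 to −0.33 for Rpl14, −0.52 to −0.32 for Rps19, −0.87 to −0.52 for Rpl37 and −0.73 to −0.48 for Rps25. Over all genes the same fits called 1514 to 2364 higher in the vestibule, against 2142 with all arrays, and 780 to 1253 higher in the cochlea, against 1129.

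**Figure D2:**
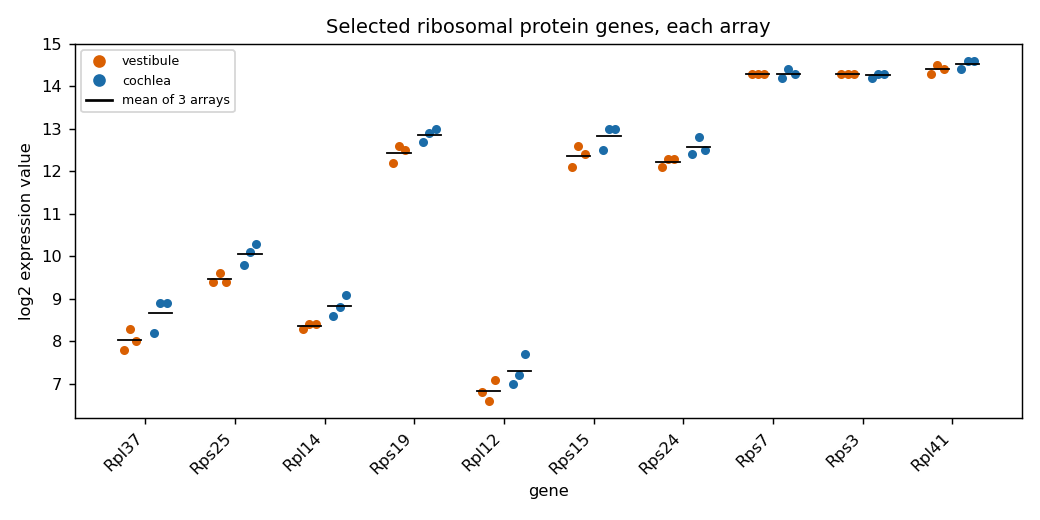
Log2 value of 10 ribosomal protein genes on each array, vestibule (left, orange) beside cochlea (right, blue), with black lines for the mean of 3 arrays. Rps25, Rpl14 and Rps19 have no overlap between the tissues, while Rps7 and Rps3, near 14.3 in both, overlap.

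A gap between the tissues was more common than a call. All 3 vestibular arrays were below all 3 cochlear arrays for 8 of the 48 tested members and for 12.4% of all tested genes. The opposite order was found for 0 members and for 19.9% of all tested genes. Besides Rps25, Rpl14 and Rps19, the 8 were Rps6, Rps24, Rps26, Rps27 and Rpl35, of which Rps6, Rps26 and Rpl35 are named after their values were seen. Rps6, the substrate of the S6 kinases downstream of mTORC1, had 8.9, 9.2 and 9.1 in the vestibule, against 9.3, 9.6 and 9.4 in the cochlea (difference −0.37, SE 0.13, limma adjusted p = 0.104). Rps27, a zinc-finger protein of the small subunit, had 5.9, 6.2 and 6.1 in the vestibule and 6.4, 6.6 and 6.3 in the cochlea, with the same difference of −0.37 and the same adjusted p of 0.104 in limma. Rps26 and Rpl35 each differed by −0.27 (limma adjusted p = 0.153). None of these 5 passed the call.

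The medians of the subunits were close, at −0.12 over 22 tested small-subunit members and −0.13 over 23 large-subunit members. Each had 2 calls, higher in the cochlea, where 7.97% of all tested genes were called. All vestibular arrays were below all cochlear arrays for 6 of the 22 and 2 of the 23, and for 12.4% of all tested genes. The subunits were not compared by a test. The stalk proteins Rplp0 and Rplp2, which recruit the elongation factors to the ribosome, were not called. Rplp0 had 13.9, 14.0 and 13.9 in the vestibule and 13.8, 14.0 and 13.8 in the cochlea (0.07, SE 0.11). Rplp2 had 13.7, 13.8 and 13.6 in the vestibule and 13.7, 13.9 and 13.9 in the cochlea (−0.13, SE 0.12). Rpsa, a small-subunit protein also known as the laminin receptor precursor, had 13.7, 13.9 and 13.8 in the vestibule and 13.9, 14.0 and 14.0 in the cochlea (−0.17, SE 0.11, limma adjusted p = 0.371). The arrays of all 3 genes overlapped. Rps19bp1 had a difference of −0.13 and was not called.

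The size of the differences moved with the level of the probe set, and many members lie close to the top of the scale. The highest deposited value was 15 and the highest of a member 14.6, and 27 of the 50 members averaged 13 or more. Of the 44 tested probe sets with a mean of 14 or more, 10 belong to members and another 17 name several genes that include a matching symbol. Over all tested probe sets the SD of the differences was 0.558 between means of 4.7 and 8, 0.463 between 13 and 14, and 0.114 from 14 upwards. Whether the scale narrows differences near its top was not tested. Among members with a mean of 13.5 or more, 0 of 20 were called, the median difference was −0.03 and 14 had intervals within 1.3-fold. Over all 40 genes of that level, which include these members, 2.5% were called higher in the cochlea and the median was 0.03. Among 16 members with means between 10 and 13.5, 1 was called and the median was −0.18, against 6.36% of 2140 genes and a median of 0.07. Among the 12 members with a mean under 10, 3 were called and the median was −0.33, against 8.28% of 11982 genes and a median of 0.03. For genes with a mean of 12 or more, 0 of 35 members were called higher in the vestibule, against 11.1% of 324 genes, and 1 of 35 was called higher in the cochlea, against 5.25% of those genes.

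**Figure D3:**
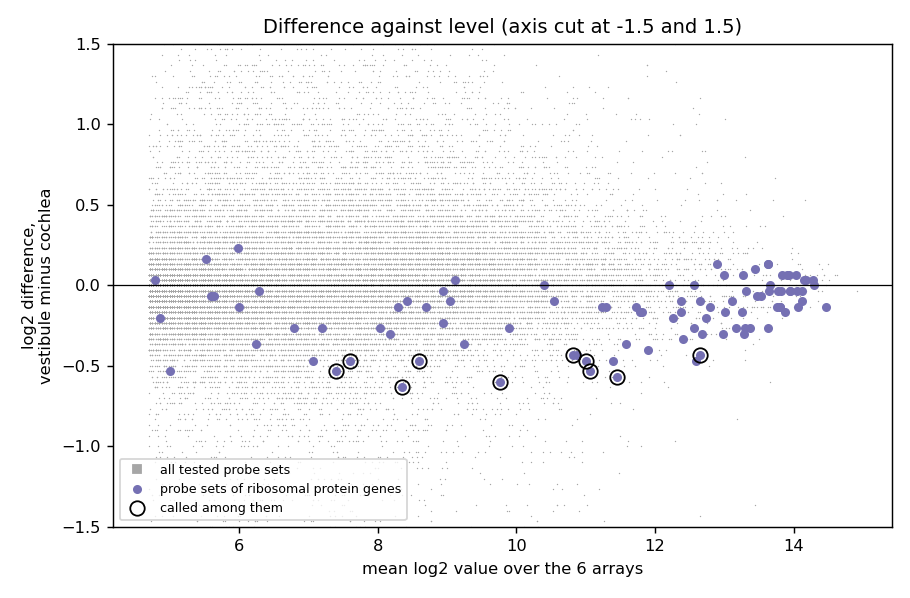
Log2 difference (vestibule minus cochlea) against the mean log2 value of the 6 arrays, with the vertical axis cut at a fixed range. Grey points are all tested probe sets. Purple points are the 98 tested probe sets of members, Rps19bp1 included, with rings for the 10 called ones. The members' points lie mostly below 0 up to a mean of 13, with class medians of −0.20 to −0.37, and draw together near 0 above it.

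The 5 members with the highest mean were Rpl41, Rps7, Rps3, Rps4x and Rps3a1. Rpl41, the smallest ribosomal protein, had 14.3, 14.5 and 14.4 in the vestibule and 14.4, 14.6 and 14.6 in the cochlea (−0.13, SE 0.12). Rps7 had 14.3 on each vestibular array and 14.2, 14.4 and 14.3 in the cochlea (0.00, 95% interval −0.25 to 0.25). Rps3, also known as a DNA repair endonuclease, had 14.3 on each vestibular array and 14.2, 14.3 and 14.3 in the cochlea (0.03, SE 0.10). Rps3a1 had 14.2, 14.1 and 14.2 in the vestibule and 14.1, 14.2 and 14.1 in the cochlea (0.03, SE 0.11). The tissues overlapped for all of them, at the upper end of the scale.

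Dimmer probe sets of the same genes gave further calls. Of the 98 tested probe sets of members, 10 probe sets of 7 genes were called higher in the cochlea, where 7.38% of all tested probe sets were, and 0 were called higher in the vestibule. Rps24, a small-subunit protein also mutated in human Diamond-Blackfan anaemia, had 12.1, 12.3 and 12.3 in the vestibule and 12.4, 12.8 and 12.5 in the cochlea at its brightest probe set. That difference was −0.33 (SE 0.14, limma adjusted p = 0.153), while 4 of the other 5 probe sets of Rps24 were called, with differences of −0.43 to −0.53. All of these 4 except the one with a mean of 7.6 are of a type that can read near-identical copies. Their levels are uncertain, and they need not be independent readings of Rps24. Rps15, a small-subunit protein with a role in nuclear export of its precursor, had 12.1, 12.6 and 12.4 in the vestibule and 12.5, 13.0 and 13.0 in the cochlea (−0.47, SE 0.18, limma adjusted p = 0.129). The dimmer probe set of Rps15 had 11.0, 11.3 and 11.2 in the vestibule and 11.5, 11.8 and 11.9 in the cochlea, without overlap, and was called (−0.57, SE 0.14, limma adjusted p = 0.0277). Rpl37a, a large-subunit zinc-finger protein, overlapped at its brightest probe set, with 12.4, 12.6 and 12.3 in the vestibule and 12.3, 13.1 and 12.7 in the cochlea (−0.27, limma adjusted p = 0.427). The dimmest probe set of Rpl37a was called, with 7.0, 7.3 and 7.1 in the vestibule and 7.4, 7.8 and 7.8 in the cochlea (−0.53, SE 0.15, limma adjusted p = 0.0415). Both probe sets given for Rpl37a can also read near-identical copies, so their levels are uncertain. Over 21 members with several tested probe sets, the dimmest differed further towards the cochlea than the brightest in 11, further towards the vestibule in 7 and by the same in 3. The probe sets of Rpl13a, Rps3, Rps18 and Rps29 had differences of both signs, and none of them was called. Of these, Rpl13a, Rps18 and Rps29 are named after their values were seen.

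Copies with a locus of their own were compared with their partner gene by the difference between tissues. Rpl22l1, the copy whose expression Rpl22 restrains in mouse, had 12.4, 12.7 and 12.5 in the vestibule and 12.6, 13.2 and 12.7 in the cochlea (−0.30, SE 0.17, limma adjusted p = 0.302). Rpl22 had 13.1, 13.3 and 13.1 in the vestibule and 13.3, 13.4 and 13.3 in the cochlea (−0.17, SE 0.11). Both pairs of groups overlapped, in that a vestibular array reached a cochlear one. Rps27l, a p53-induced copy, had 10.4, 10.6 and 10.5 in the vestibule and 10.3, 11.1 and 10.4 in the cochlea (−0.10, SE 0.20), beside the −0.37 of Rps27. Cochlea replicate 2 was the only array of Rps27l above 10.6. The probe sets given for Rpl22 and Rps27l are of a type that can read near-identical copies. The dimmer probe sets of Rps27l differed by 0.00 and −0.27. Rps27 was read by 1 dim probe set with a mean of 6.25, so these levels are uncertain.

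Rpl39l, a copy best known from the testis, was the member with the highest difference. It had 5.9, 6.0 and 6.4 in the vestibule and 5.9, 5.8 and 5.9 in the cochlea (0.23, SE 0.15, limma adjusted p = 0.347), and the arrays overlapped. Rpl39 had 7.0, 7.2 and 7.0 in the vestibule and 7.1, 7.6 and 7.3 in the cochlea (−0.27, SE 0.15, limma adjusted p = 0.287), also with overlap. Rpl7l1, a nucleolar copy, had 8.8, 9.1 and 9.1 in the vestibule and 8.9, 9.2 and 9.2 in the cochlea (−0.10, SE 0.14), and Rpl7 had 13.5 on each vestibular array and 13.3, 13.5 and 13.4 in the cochlea (0.10, SE 0.11). Rps4l had 9.1, 9.4 and 8.9 in the vestibule and 9.1, 9.2 and 9.0 in the cochlea (0.03, SE 0.15). Rps4x, the X-linked partner, had 14.2 on each vestibular array and 14.1, 14.3 and 14.1 in the cochlea (0.03, SE 0.11). Rpl39 and Rpl39l were each read by 1 dim probe set, with means of 7.2 and 5.98, and the probe set given for Rpl7 can read near-identical copies. No copy or partner in these 5 pairs was called, and the difference between a copy and its partner was not tested.

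Over all members together, the median level on single arrays crossed the tissues. Each gene was set against its own mean over the 6 arrays, and the median over the 48 members was −0.15, 0.02 and −0.09 on vestibule replicates 1 to 3, and −0.07, 0.15 and 0.07 on cochlea replicates 1 to 3. By this median cochlea replicate 1 lay inside the vestibular range, and cochlea replicates 2 and 3 above it. Its position differed by level. Over members with a mean under 10, cochlea replicate 1 had −0.042, above vestibule replicates 1 to 3 (−0.275, −0.05 and −0.15). Over members with a mean of 13.5 or more it had −0.067, below vestibule replicates 1 to 3 (−0.025, 0.033 and −0.042). Cochlea replicate 1 was alone the lowest cochlear array for 37 of the 48 members, and cochlea replicate 2 alone the highest for 25. In the vestibule, replicate 1 was alone the lowest for 22 members and replicate 2 alone the highest for 29. Rpl12, a protein of the base of the stalk named after its values were seen, had 6.8, 6.6 and 7.1 in the vestibule and 7.0, 7.2 and 7.7 in the cochlea, overlapped and was not called (−0.47, SE 0.20, limma adjusted p = 0.167).

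**Figure D4:**
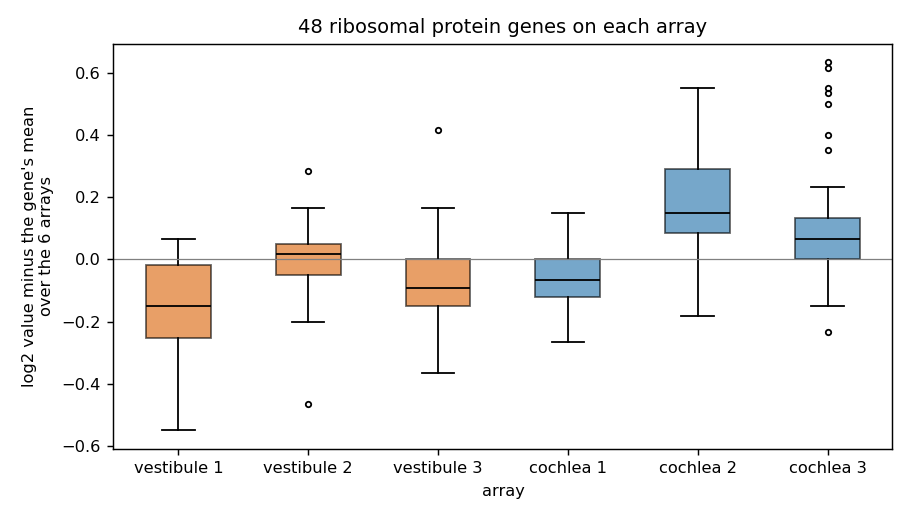
Log2 value minus the gene's own mean over the 6 arrays, for the 48 tested members, Rps19bp1 included, on each array. Lines are medians, boxes are quartiles, whiskers run to the most distant gene within the standard reach, and points are genes beyond. Medians run from −0.15 on vestibule replicate 1 to 0.15 on cochlea replicate 2, and cochlea replicate 1, at −0.07, lies within the vestibular range.

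Signs of RNA quality also differed between arrays. The excess of the 3′ over the 5′ probe set of the beta-actin mRNA was 2.1, 2.0 and 2.0 in the vestibule and 1.9, 2.0 and 2.6 in the cochlea, and that of the Gapdh mRNA 2.4, 2.3 and 2.3 in the vestibule and 2.1, 2.4 and 2.8 in the cochlea. Cochlea replicate 3 was thus the highest in both. The 3′ control of the small-subunit ribosomal RNA was 11.2, 11.3 and 10.9 in the vestibule and 11.6, 10.3 and 11.3 in the cochlea. The middle control was 11.4, 11.8 and 10.9 in the vestibule and 11.7, 10.8 and 11.3 in the cochlea. For the 5′ control the values were 11.7, 12.1 and 11.4 in the vestibule and 12.0, 11.5 and 11.8 in the cochlea. Among cochlear arrays each control was lowest on replicate 2 and highest on replicate 1, the reverse of the members' median. Among vestibular arrays the relation was not reversed, as each control and the members' median were highest on replicate 2. The part of these values in the result was not tested. Over all tested probe sets, vestibular arrays correlated with each other at 0.993, cochlear arrays at 0.98 to 0.988, and arrays of different tissues at 0.945 to 0.961.

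The tissue labels held against marker genes, and cell types moved with tissue. All 7 vestibular organ markers passed as higher in the vestibule, and 5 of 6 cochlear duct markers passed as higher in the cochlea. Markers of hair cells were higher in the vestibule for 6 of 9, of macrophages for 10 of 10, of endothelium for 5 of 6, of melanocytes for 5 of 5, of red blood cells for 1 of 1, of mesenchyme for 4 of 8 with 1 higher in the cochlea, and of Schwann cells for 2 of 4 with 1 higher in the cochlea. Markers of neurons were higher in the cochlea for 7 of 8, and of supporting cells for 3 of 6. Summed over the 8 neuronal genes, the log2 level was 52.5 to 54.9 in the vestibule and 62.1 to 67.1 in the cochlea. Over the 10 macrophage genes it was 85.6 to 89.1 in the vestibule and 69.5 to 72.5 in the cochlea. No marker is at 0 on a log2 scale that starts at 2.8. Of 18 tested genes of dividing cells, 0 were called in either direction, with a median difference of 0.18. The part of the cell mixture in the ribosomal protein result was not tested.

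Several other TOP transcripts were lower in the vestibule, most of them snoRNA hosts. Of 13 tested genes in this list, 7 of them snoRNA hosts, 0 were called higher in the vestibule, against 15.1% of all tested genes. In the cochlea 7 were called higher, where 7.97% of all tested genes were, with a median of −0.40. The list leaves out the translation factors, so it does not stand for all TOP transcripts. Of 9 genes in an elongation factor list, 7 were higher in the vestibule in sign and 2 lower (median 0.07). The 7 include Eef2k (0.03), a kinase that acts on Eef2, and Tsfm (0.07), a mitochondrial factor. Which of the 9 have a TOP motif was not tested. Of 33 initiation factors, 20 were higher there, 10 lower and 3 without a difference (median 0.10). Nap1l1, a histone chaperone, had 11.0, 11.1 and 11.0 in the vestibule and 11.8, 12.2 and 11.9 in the cochlea (−0.93, SE 0.13, limma adjusted p = 0.00143). The snoRNA host transcript Snhg6 had 9.3, 9.6 and 9.5 in the vestibule and 10.0, 10.7 and 10.3 in the cochlea (−0.87, SE 0.18, limma adjusted p = 0.0116). Neither gene had an overlap between tissues. Snhg12, whose start region is printed above, had 8.4, 8.4 and 8.3 in the vestibule and 8.9, 9.1 and 8.9 in the cochlea (−0.60, SE 0.11, limma adjusted p = 0.00674). Snhg8 had 11.8, 11.9 and 11.8 in the vestibule and 12.2, 12.7 and 12.4 in the cochlea (−0.60, SE 0.14, limma adjusted p = 0.0215). Both were lower on every vestibular array. Snhg1, Snhg5 and Gas5 were called with smaller differences of −0.43, −0.40 and −0.43, and are named after their values were seen.

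All 7 tested snoRNA host transcripts were lower in the vestibule and 6 were called, and Snhg3, the remaining one, differed by −0.23 (limma adjusted p = 0.261). Not called among the protein-coding TOP transcripts were Hnrnpa1, an RNA-binding protein, at −0.33, Btf3 and Naca, which pair in the nascent-chain complex, at −0.07 and 0.00, Cct4, a chaperonin subunit, at −0.03, and Tpt1, a growth-related protein, at 0.13. These genes are also named after their values were seen. The count of 7 fell to 3 without vestibule replicate 1 or 3, and to 4 without vestibule replicate 2 or cochlea replicate 3. The signs of the 7 host transcripts were unchanged in each of these fits.

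**Figure D5:**
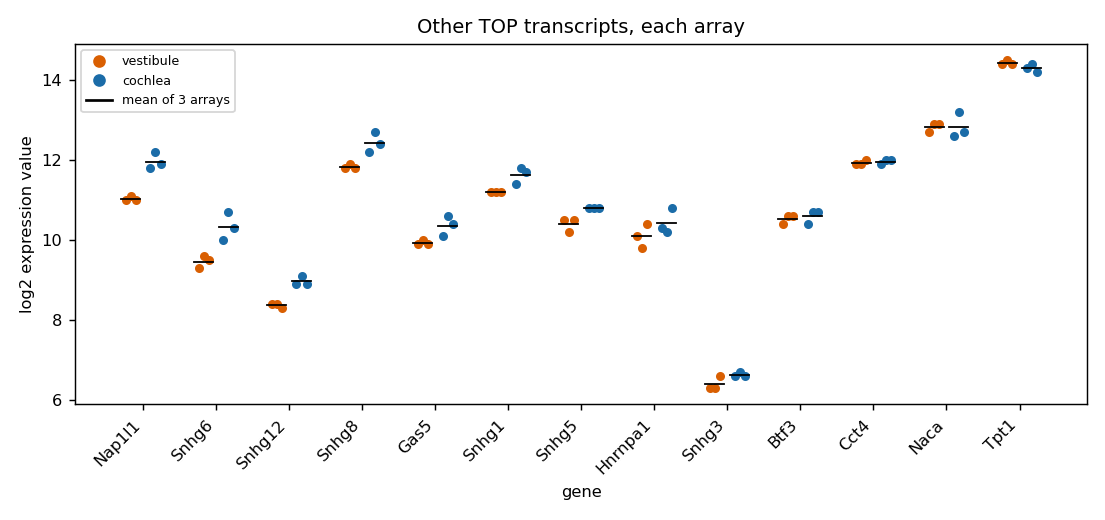
Log2 value of the 13 tested transcripts of the other TOP list on each array, vestibule (left, orange) beside cochlea (right, blue), ordered by the difference, with black lines for the mean of 3 arrays. Nap1l1 and Snhg6, at the left, differ by −0.93 and −0.87 without overlap, and Naca and Tpt1, at the right, overlap.

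Genes that make ribosomes or work with them are given next. Fau, whose product holds a small-subunit ribosomal protein that the rule does not name, had 12.7, 13.0 and 12.8 in the vestibule and 12.9, 13.2 and 13.1 in the cochlea (−0.23, SE 0.13, limma adjusted p = 0.292). Of 56 ribosome assembly genes, 0 were called higher in the vestibule, against 15.1% of all tested genes, and 3 in the cochlea, against 7.97% (median 0.02). These were Utp20 (−0.47), a component of the small-subunit processome, Dkc1 (−0.43), the pseudouridine synthase of ribosomal RNA, and Rcl1 (−0.40), a factor in maturation of the small-subunit RNA. Of 15 RNA polymerase I genes, only Polr1a, the largest subunit, was called, higher in the vestibule (0.43, SE 0.11, limma adjusted p = 0.029), over a list median of −0.13. The same shares, 15.1% for the vestibule and 7.97% for the cochlea, apply to this list.

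Among 33 initiation factors, 0 were called higher in the cochlea, against 7.97% of all tested genes, and 1 in the vestibule, against 15.1% (median 0.10). It was Pabpc1, the poly(A)-binding protein whose mRNA also starts with a TOP motif, with 13.2, 13.2 and 13.1 in the vestibule and 12.7, 12.8 and 12.4 in the cochlea (0.53, SE 0.13, limma adjusted p = 0.0252). Its arrays did not overlap, in the order opposite to that of the snoRNA hosts. Among the 9 genes of the elongation factor list, 1 was called in each direction, beside the same shares of all tested genes (median 0.07). Eif5a2, an isoform of the factor that relieves ribosome stalling, had 9.6, 9.2 and 9.6 in the vestibule and 8.0, 8.3 and 7.9 in the cochlea (1.40, SE 0.16, limma adjusted p = 0.000423). Eef1a2, the isoform of neurons and muscle, had 7.2, 7.4 and 7.3 in the vestibule and 7.8, 8.7 and 8.1 in the cochlea (−0.90, SE 0.21, limma adjusted p = 0.0194).

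Few regulators of the class were called. Of 21 genes of mTORC1 and TOP control, 1 was called in each direction (median 0.10). The shares of all tested genes were 15.1% for the vestibule and 7.97% for the cochlea. Mycn, a transcription factor that drives ribosome biogenesis genes, had 7.1, 7.4 and 6.7 in the vestibule and 9.0, 8.7 and 8.6 in the cochlea (−1.70, SE 0.19, limma adjusted p = 0.000385), a gap far wider than the spread within either tissue. Deptor, an inhibitor of mTOR, had 8.4, 8.3 and 7.9 in the vestibule and 7.6, 6.9 and 7.9 in the cochlea, with the tissues meeting at 7.9 (0.73, SE 0.25, limma adjusted p = 0.0853). Of 8 genes of the p53 response, through which cells react to free ribosomal proteins, 3 were called higher in the vestibule, where 15.1% of all tested genes were, against 0 for the cochlea (median 0.20). They were Cdkn1a, the inhibitor of cyclin-dependent kinases (0.80), Trp53inp1 (0.50) and Zmat3 (0.43).

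The mitochondrial ribosome, built from a separate set of proteins, gave few calls. Of its 76 genes, 1 was called in each direction, against 15.1% of all tested genes for the vestibule and 7.97% for the cochlea. In sign, 24 of the 76 were higher in the vestibule, 48 were lower there and 4 had no difference, with a median of −0.07 against 0.03 over all tested genes. Mrps6 had 12.3, 12.3 and 12.2 in the vestibule and 11.1, 11.3 and 11.2 in the cochlea (1.07, SE 0.11, limma adjusted p = 0.000264). Mrps15 had 9.3, 9.6 and 9.4 in the vestibule and 9.8, 9.9 and 10.0 in the cochlea (−0.47, SE 0.12, limma adjusted p = 0.0339). Both genes encode small-subunit proteins of the mitochondrial ribosome, and neither overlapped between the tissues.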

How the data were processed

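Total RNA of 3 vestibular and 3 cochlear pools was amplified by the authors and hybridised to Affymetrix mouse arrays. The deposited log2 values were made by the authors with RMA and quantile normalization (versions not given in the sources used here). They carry 1 decimal, have a median of 5.6 to 5.7 on each array, and were used without further scaling. The study's Present call filter was not used here, and a mean log2 value of at least 4.7 over the 6 arrays took its place. The probe annotation names 1 gene for 34945 probe sets, several for 932 and none for 9160, with 64 controls left out. For 34741 the symbol was looked up through the Entrez number.

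The contrast of vestibule minus cochlea was computed for each probe set in limma 3.58.1 under R 4.3.3 by lmFit and eBayes (two-sided). Adjustment followed Benjamini-Hochberg across the 29554 probe sets tested. Precision is limited by 3 arrays per tissue, and with 3 against 3 an exact permutation test of a single gene could not go below p = 0.1. Among the chosen probe sets of members, 18 carry the suffix _x_at or _s_at, which marks probes shared with similar sequences. Summaries and figures used Python 3.11.15, pandas 2.3.3, numpy 2.4.6 and matplotlib 3.10.9. The fit was tested on simulated data.

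The members, the gene lists and the markers were chosen with earlier results of these data known. Named genes were the called members, the copies with their partners, Rplp0, Rplp1, Rplp2 and Rpsa, members with a call at another probe set, the 5 highest means, matches that are not ribosomal proteins, and up to 4 called genes of each list. Others are said to be named after their values were seen. Start regions came from RefSeq (GRCm38.p6). Alternatives covered filters, scaling, array weights, a variance trend, single arrays left out, a replicate block, other thresholds and other choices of probe set. The study's miRNA and protein data are not analysed here.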

Additional observations from a re-analysis of the deposited data

How the results depend on the processing

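No alternative called a member higher in the vestibule, over all 22 tried. The median difference stayed between −0.22 and −0.07 in the 17 that gave one, against −0.13. The SD of the members' median between arrays of a tissue was 0.089. The count of members higher in the cochlea, 4, moved to 1 with array weights, 1 at an adjusted p under 0.05, 0 with a test per probe set whose variances were not moderated, 7 with probe sets averaged per gene, 8 with centring on probe sets with a mean of 10 or more, 8 with a second quantile normalization, and 7 where any probe set of a gene could call it. That last choice, leaving out Rps19bp1, and the brightest probe set with a mean under 13 (4 of 32 members) were added after seeing the data. Leaving out 1 array at a time gave 0 to 5, with medians of −0.20 to −0.07. The count was 3 to 5 with no filter, a minimum mean of 6, a variance trend, median centring, no minimum fold, no shared-suffix probe sets, or a random value within the rounding of the deposited decimals. The fold of 1.3 and the 0.1 threshold leave genes such as Rps6 and Rps27 just outside, and both were called under 3 of 20 alternatives. Scaling moved the median of all probe sets by at most 0.072.

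Small differences changed sign. Centring on bright probe sets gave Rps4x, Rps4l, Rps3 and Rps3a1 −0.039 each and Rplp0 −0.005. Rps4l became −0.072 with a second quantile normalization, −0.017 without cochlea replicate 3 and −0.10 without vestibule replicate 2. Rps3 became −0.244 as the mean of its probe sets. Rps27l became 0.02 with array weights, and lay between −0.25 and 0.15 with single arrays left out, the highest without cochlea replicate 2. The cause was not tested.

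With the replicate block, 5 members were called higher in the cochlea and 0 higher in the vestibule. Deviations of arrays with the same number correlated at 0.218, 0.153 and −0.000398. The values for numbers 1 and 2 were the highest of all pairings across the tissues, while cochlea replicate 3 did not correlate best with its own number. The median over the members rose from replicate 1 to 3 to 2 in both tissues. The labels do not say whether the numbers mark pairs, and they were not taken as pairs in the main fit. Of the other TOP transcripts, 4 were called with the replicate block, 4 with the mean of probe sets and 2 without moderated variances, against 7.

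The number of arrays limits precision.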
